A study of Homo sapiens with 8 samples.

Results

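The 10 genes described here are protein-coding neighbours of ZEB1 on the short arm of chromosome 10: SVIL, MTPAP, MAP3K8, LYZL2, ARHGAP12, KIF5B, EPC1, CCDC7, ITGB1 and NRP1. They were chosen by position, as genes about 1 to 2 Mb from ZEB1 on either side, and are 10 of 19962 protein-coding genes measured. Their transcription start sites (TSS, taken as the annotated 5′ end) lay between 0.610 Mb (ARHGAP12) and 2.02 Mb (NRP1) from that of ZEB1, so that 5 of them were nearer than 1 Mb. Within 2.1 Mb of the ZEB1 TSS there were 13 protein-coding genes besides ZEB1, and the 3 not among the members were LYZL1, JCAD and ZNF438. ZNF438, at 287 kb, was closer to ZEB1 than any member. SVIL, MTPAP, MAP3K8 and LYZL2 lie upstream of ZEB1, which is read from the plus strand, and the other 6 lie downstream.

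The study silenced ZEB1 in SUM159, an established triple-negative breast cancer cell line, and mapped 2 histone marks by native ChIP-seq, in which nucleosomes are pulled down with an antibody without cross-linking. All cells were transduced with pLV dCas9-KRAB, a lentiviral vector that encodes a Cas9 without nuclease activity joined to the KRAB repressor domain, and were selected with puromycin. The All gRNA cells also received the 4 guides to the ZEB1 promoter, whereas the No gRNA cells (empty vector control) received no targeting guide. For each mark, 2 libraries labelled as biological replicates were made per group, which gave 8 libraries and 8 peak lists. Nothing in the labels says whether replicates came from separate transductions, so the spread between them may be partly technical. The comparison asks whether the mark placed at ZEB1 reached the genes next to it.

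KRAB recruits a corepressor complex that includes enzymes which trimethylate lysine 9 of histone H3 (H3K9me3), a mark of silent chromatin that can spread along a chromosome from the site where it is placed. Trimethylation of lysine 4 (H3K4me3) marks the start sites of active genes and of many CpG island promoters. ZEB1 encodes a zinc finger repressor of epithelial genes. Its neighbours here have various functions. SVIL encodes supervillin, which binds actin and myosin at the membrane, and MTPAP the mitochondrial poly(A) polymerase. MAP3K8 encodes a kinase upstream of MEK and ERK, and LYZL2 a lysozyme-like protein known from testis. Downstream, ARHGAP12 encodes a GTPase activating protein, KIF5B the heavy chain of kinesin-1, EPC1 a subunit of the NuA4 acetyltransferase complex, ITGB1 the integrin beta 1 chain and NRP1 neuropilin 1, a coreceptor for semaphorins and VEGF. CCDC7 encodes a coiled-coil protein.

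Promoter sequences differ in CpG content among these genes, and 4 are shown because they belong to the members with the highest or the lowest H3K4me3 coverage at the annotated 5′ end. Each is the 150 bases before the RefSeq start (GRCh38.p14, minus strand, 5′ to 3′), with every CG in capitals. ARHGAP12 was fully covered by H3K4me3 in every library (chr10:31928832-31928981), and CCDC7, equally covered, had no entry. MTPAP (chr10:30349279-30349428), LYZL2 (chr10:30629754-30629903) and ITGB1 (chr10:32958231-32958380) had no H3K4me3 at q ≤ 0.05 at the 5′ end. The stretches printed for MTPAP and ITGB1 are not from that end but from before the Ensembl canonical TSS. There both genes were covered to 100% and 0% in the libraries labelled All gRNA replicates 1 and 2. Under the label No gRNA they were covered to 100% in each replicate.
ARHGAP12: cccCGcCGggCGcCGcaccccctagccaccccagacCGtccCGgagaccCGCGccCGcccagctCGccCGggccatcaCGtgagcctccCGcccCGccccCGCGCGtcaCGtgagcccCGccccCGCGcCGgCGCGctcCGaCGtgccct
MTPAP: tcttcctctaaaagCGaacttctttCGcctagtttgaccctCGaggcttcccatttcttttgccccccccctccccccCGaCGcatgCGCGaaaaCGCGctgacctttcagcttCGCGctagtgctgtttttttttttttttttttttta
LYZL2: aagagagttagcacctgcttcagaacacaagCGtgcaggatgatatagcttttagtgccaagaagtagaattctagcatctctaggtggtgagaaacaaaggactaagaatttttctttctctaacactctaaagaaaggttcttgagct
ITGB1: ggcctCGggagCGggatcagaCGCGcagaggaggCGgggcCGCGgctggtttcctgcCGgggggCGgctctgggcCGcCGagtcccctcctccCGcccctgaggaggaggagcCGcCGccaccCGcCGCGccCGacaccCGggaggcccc
The ARHGAP12 stretch holds 26 CG, that of ITGB1 19, that of MTPAP 11 and that of LYZL2 1. In the 250 bases before the start, the 8 members with an entry held 2 (SVIL), 3 (LYZL2), 13 (MTPAP), 24 (KIF5B), 25 (MAP3K8), 32 (ITGB1), 34 (ARHGAP12) and 40 (EPC1) CG, beside a median of 11 over 34961 RefSeq promoters, of which 94.0% hold at least 1. NRP1 had no entry. The RefSeq starts of MTPAP and ITGB1 fall on the Ensembl canonical TSS, which lies 25.2 kb (MTPAP) and 47.6 kb (ITGB1) inside the annotated 5′ end. This distance bears on the H3K4me3 values below.

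Each peak list gives regions with a q-value, and peaks at q ≤ 0.05 were used unless all deposited peaks are named. On the main chromosomes, 10551 to 36131 H3K9me3 peaks and 3067 to 13877 H3K4me3 peaks were kept per library. Sequencing depth is unknown, since the lists hold no counts. The share of promoters touched by an H3K4me3 peak was 33.2% and 11.5% for the label All gRNA against 9.26% and 52.6% for the label No gRNA, so the yield differed more within a labelled group than between group means. The file names of 2 of the 4 H3K4me3 libraries, labelled All gRNA replicate 2 and No gRNA replicate 1, give the other condition. Labels were kept, and H3K4me3 values are given per library and without these 2. Of 5 mesenchymal marker genes (VIM, CD44, SNAI2, AXL, ZEB1), between 2 and 5 per library had an H3K4me3 peak at the 5′ end, whereas none of 5 epithelial markers (CDH1, EPCAM, ESRP1, GRHL2, OVOL2) had one there in any library. At the canonical TSS, EPCAM had one in the library labelled All gRNA replicate 1.

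H3K9me3 was higher at ZEB1 in both All gRNA libraries than in either No gRNA library, and at q ≤ 0.05 it was found at the start of none of the 10 neighbours. The TSS ± 10 kb of ZEB1 was covered to 22.8% and 67.3% in All gRNA replicates 1 and 2, against 0% in each No gRNA library (exact two-sided permutation p = 0.333, the smallest that 2 against 2 libraries allow). H3K9me3 peaks at q ≤ 0.05 covered 198 and 188 Mb of the main chromosomes in All gRNA, against 97.6 and 238 Mb in No gRNA. Within 2.1 Mb of the ZEB1 TSS there were 17 and 9 such peaks against 1 and 28. A value of 0% in No gRNA replicate 1 is therefore little informative at this threshold. In a pool of cells, more marked cells and more mark per cell cannot be told apart. The same window of all 10 neighbours was at 0% in each of the 4 libraries, at the annotated 5′ end and at the canonical TSS alike. Calling a promoter required a gap of 25 percentage points or more between the nearest libraries of opposite groups. By this rule 0 of 10 neighbours were called, against 0.230% of the 19962 promoters. ZEB1, with a gap of 22.8 points, was not called at this threshold either. A value of 0% in every library was the usual state, since 85.7% of all promoters had it, so this count alone does not set the neighbours apart. The nearest H3K9me3 peak at q ≤ 0.05 in any library lay 14.7 kb from the SVIL TSS, in All gRNA replicate 1. ITGB1 and NRP1 followed with a peak at 27.0 kb and 29.0 kb, both in No gRNA replicate 2. ARHGAP12, the member closest to ZEB1, was the farthest from any such peak, at 237.9 kb.

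With all deposited peaks, which include regions with a p-value up to about 0.1, the windows of the neighbours were partly covered in both groups and still none was called, against 0.215% of all promoters. ZEB1 reached 79.4% and 82.0% in All gRNA but 4.57% and 1.33% in No gRNA. The highest value of any neighbour was 33.1%, at ITGB1 in No gRNA replicate 1. Over the 10 genes the median of the All gRNA minus No gRNA difference was −1.89 points, and over all promoters it was −0.922 points. The groups did not overlap, with All gRNA higher, at 1 of 10 members (11.0% of all promoters) and, with All gRNA lower, at 2 of 10 (24.4% of all promoters).

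Among the upstream genes, MAP3K8 was the one whose groups did not overlap at the 5′ end with All gRNA higher, although MTPAP and LYZL2 also had higher All gRNA means. Its TSS ± 10 kb was covered to 11.8% and 13.0% in All gRNA but 4.17% and 1.07% in No gRNA, a difference of 9.79 points (exact permutation p = 0.333). The SD (n = 2) of the replicates was 0.848 points in All gRNA and 2.20 points in No gRNA. MTPAP, the next gene out from ZEB1, read 2.68%, 19.6%, 10.6% and 6.97% in All gRNA replicates 1 and 2 and No gRNA replicates 1 and 2, with the groups overlapping. At its canonical TSS the MTPAP groups did separate, at 7.79% and 11.9% against 1.22% and 6.36%, with a gap of 1.43 points. At that start the groups did not overlap, with All gRNA higher, at 2 of 10 members and at 2144 of 19962 promoters. With All gRNA lower this held at 0 of 10 members and at 4856 of all promoters. LYZL2, the upstream member nearest to ZEB1, read 21.6% and 4.40% in All gRNA versus 9.06% and 8.40% in No gRNA, so the All gRNA replicates lay on both sides of the No gRNA pair. SVIL read 0% and 0% in All gRNA versus 7.72% and 3.18% in No gRNA, a direction opposite to that of MAP3K8, but its groups overlapped at the canonical TSS.

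Downstream of ZEB1, no neighbour was higher in both All gRNA libraries. ARHGAP12 read 2.43% and 0% in All gRNA versus 8.01% and 2.11% in No gRNA, and KIF5B read 0% and 5.81% against 10.9% and 0%. Both groups included values near 0 at these genes. EPC1 was at 5.99% and 6.03% in All gRNA versus 12.4% and 4.93% in No gRNA, and CCDC7 at 1.41% and 6.30% against 3.56% and 6.65%. The groups overlapped at both. ITGB1 was lower in All gRNA, at 7.45% and 12.2%, than in No gRNA, at 33.1% and 17.8% (difference −15.6 points, SD 3.35 and 10.8 points with n = 2 each, exact permutation p = 0.333), although at its canonical TSS the groups overlapped. NRP1, the most distant member, read 10.4% and 31.0% against 15.3% and 25.1%, a spread within each group wider than the difference of 0.485 points.

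**Figure D1:**
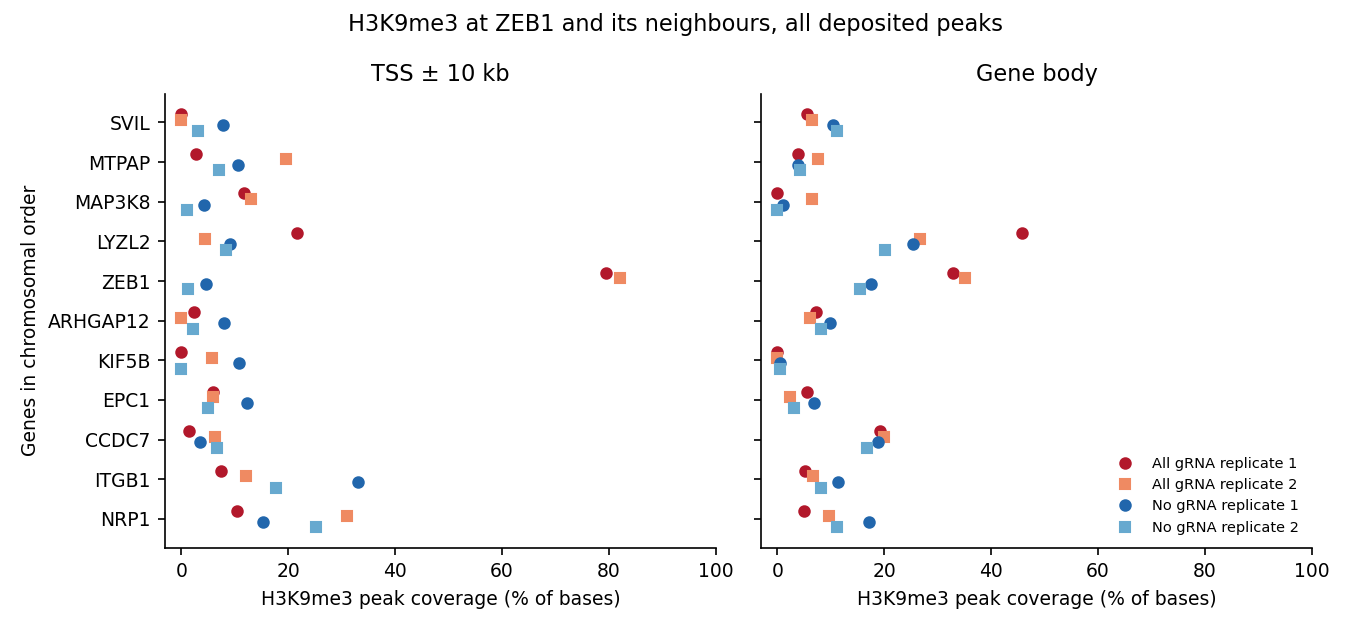
H3K9me3 coverage (percent of bases under any deposited peak) in the TSS ± 10 kb (left) and the gene body (right) of ZEB1 and its 10 neighbours, with 1 point per library. ZEB1 separates at 79.4% and 82.0% against 4.57% and 1.33% at the TSS, whereas no neighbour passes 33.1% there. At the TSS of most neighbours the libraries of the groups are mixed. In gene bodies the groups do not overlap at 2 of 10 neighbours with All gRNA higher (10.8% of all genes). With All gRNA lower this holds at 5 of 10 bodies (24.5% of all genes).

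Gene bodies were compared as well, since a spreading mark could enter a gene without reaching its start. At q ≤ 0.05 the bodies of 7 of the 10 neighbours held no H3K9me3 peak in any library, and none was called (0.170% of all genes). The rest held small amounts. SVIL was covered to 0.992%, 0%, 0.113% and 0.129% of its body in All gRNA replicates 1 and 2 and No gRNA replicates 1 and 2, CCDC7 to 1.45%, 0.417%, 0% and 0.545%, and ITGB1 to 0.282% in No gRNA replicate 2 and 0% in the others. The body of ZEB1 itself was covered to 11.4% and 4.50% in All gRNA versus 0% and 5.38% in No gRNA, so its groups overlapped over the 211 kb of the gene.

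In the full lists again none of the neighbours' bodies was called (0.641% of all genes). The groups did not overlap at 2 of 10 bodies with All gRNA higher (10.8% of all genes) and at 5 of 10 with All gRNA lower (24.5% of all genes). LYZL2 was higher in All gRNA, at 45.8% and 26.8% against 25.4% and 20.1%, with 1.36 points between the closest libraries of the groups. CCDC7 was higher by a gap of 0.311 points, at 19.2% and 20.0% against 18.9% and 16.8%. At both genes the gap was smaller than the spread within a group. SVIL, ARHGAP12, KIF5B, ITGB1 and NRP1 were lower in both All gRNA libraries than in either No gRNA library, the widest gap being −3.90 points, at SVIL (5.60% and 6.47% against 10.4% and 11.2%). The median difference over the 10 bodies was −0.756 points, beside −0.526 points over all genes. ZEB1 was covered to 33.0% and 35.1% against 17.5% and 15.5%.

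Between ZEB1 and its neighbours the difference was followed outward in steps. In the full lists, the 10 kb upstream of the ZEB1 TSS were covered to 88.4% and 89.3% in All gRNA, against 0% in each No gRNA library, and the 10 kb downstream to 70.5% and 74.7% against 9.14% and 2.66%. From 100 to 250 kb the values were 56.5% and 60.2% against 32.2% and 27.1% upstream, and 38.3% and 44.3% against 23.0% and 24.3% downstream. All gRNA was therefore still higher there, with exact permutation p = 0.333 on each side. The difference did not fall evenly with distance, being 4.71 points from 50 to 100 kb and 17.7 points from 100 to 250 kb downstream, and 3.51 points from 250 to 500 kb and 6.90 points from 500 to 1000 kb upstream. Genome-wide the same lists covered 24.4% and 25.4% of the bases in All gRNA, against 23.9% in each No gRNA library.

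At the distances where the members lie the differences were smaller in size than within 50 kb of the ZEB1 TSS, but they did not fade steadily. Upstream the difference was 3.51 points from 250 to 500 kb, 6.90 points from 500 to 1000 kb and −4.80 points from 1000 to 2100 kb. In 3 of the 4 steps that hold members All gRNA had the lower mean. Between 500 and 1000 kb upstream, which holds the starts of MTPAP, MAP3K8 and LYZL2, coverage was 23.7% and 24.7% against 17.3% and 17.3%. On the downstream side of the same range, which holds ARHGAP12 and KIF5B, it was lower in All gRNA, at 10.2% and 9.05% against 12.0% and 10.9%. From 1000 to 2100 kb, with SVIL upstream and EPC1, CCDC7, ITGB1 and NRP1 downstream, it was 13.5% and 14.3% against 19.6% and 17.8% upstream and 15.3% and 17.6% against 20.6% and 17.3% downstream. Over both sides from 50 kb to 2.1 Mb the All gRNA minus No gRNA difference was 1.53 points with all deposited peaks (exact permutation p = 0.333). From 250 kb outward it was −0.560 points and from 500 kb outward, where all members lie, −1.71 points. At q ≤ 0.05 the difference from 50 kb to 2.1 Mb was −0.0526 points, from 0.800% and 0.388% against 0.00768% and 1.28%, with an exact permutation p of 1. The No gRNA replicates thus held the lowest and the highest value.

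**Figure D2:**
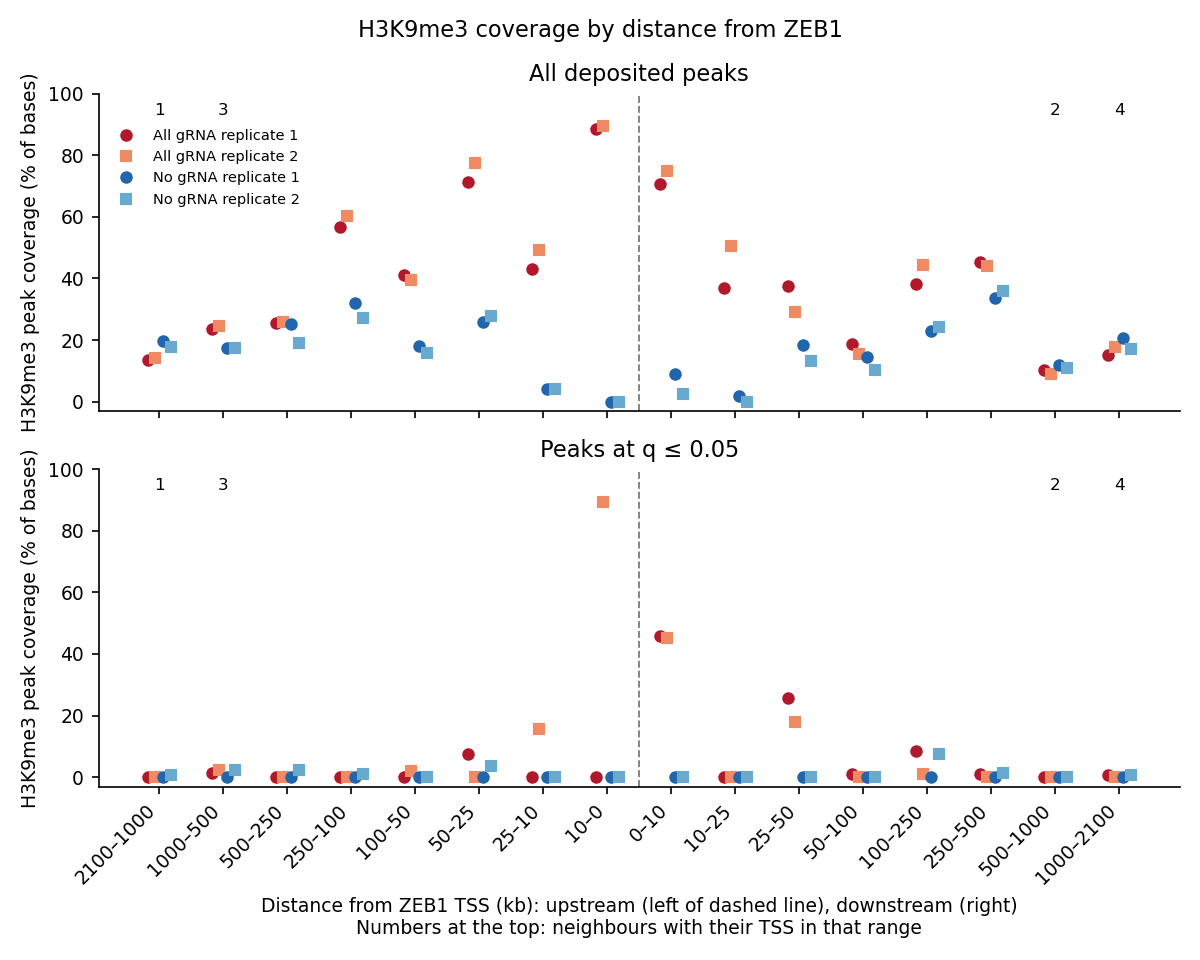
H3K9me3 coverage (percent of bases) per library in steps of distance (kb) upstream and downstream of the ZEB1 TSS, with all deposited peaks above and peaks at q ≤ 0.05 below; the numbers at the top count the neighbours whose TSS lies in a step. The groups are far apart within 250 kb upstream in the full lists. In the outer steps that hold the 10 neighbours, 6.39 points or less lie between the closest libraries of the groups.

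Windows of 10 kb placed this on the map without choosing a promoter. Of 420 windows within 2.1 Mb of the ZEB1 TSS, 2 were called higher in All gRNA at q ≤ 0.05 (0.354% of all 302998 windows) and 0 lower (0.0723%). Their centres lay 6.51 and 46.5 kb downstream of the ZEB1 TSS, inside ZEB1. With all deposited peaks 17 windows were called higher (0.877% of all windows) and 2 lower (0.196%). Of the higher ones 7 of 10 windows lay within 50 kb of the ZEB1 TSS, 6 of 40 from 50 to 250 kb, 1 of 50 from 250 to 500 kb, 3 of 100 from 500 to 1000 kb and 0 of 220 beyond. None of the 19 windows overlapped the body of a neighbour. The 3 outermost higher windows were centred 583, 573 and 523 kb upstream, between LYZL2 and ZNF438, and the closest was 105 kb from the LYZL2 TSS. That window was covered to 81.0% and 76.3% in All gRNA versus 35.7% and 38.4% in No gRNA. Of the 2 windows lower in All gRNA, 1 lay 78.7 kb from the NRP1 TSS, on the side away from ZEB1, at 10.4% and 5.35% against 43.6% and 47.1%.

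**Figure D3:**
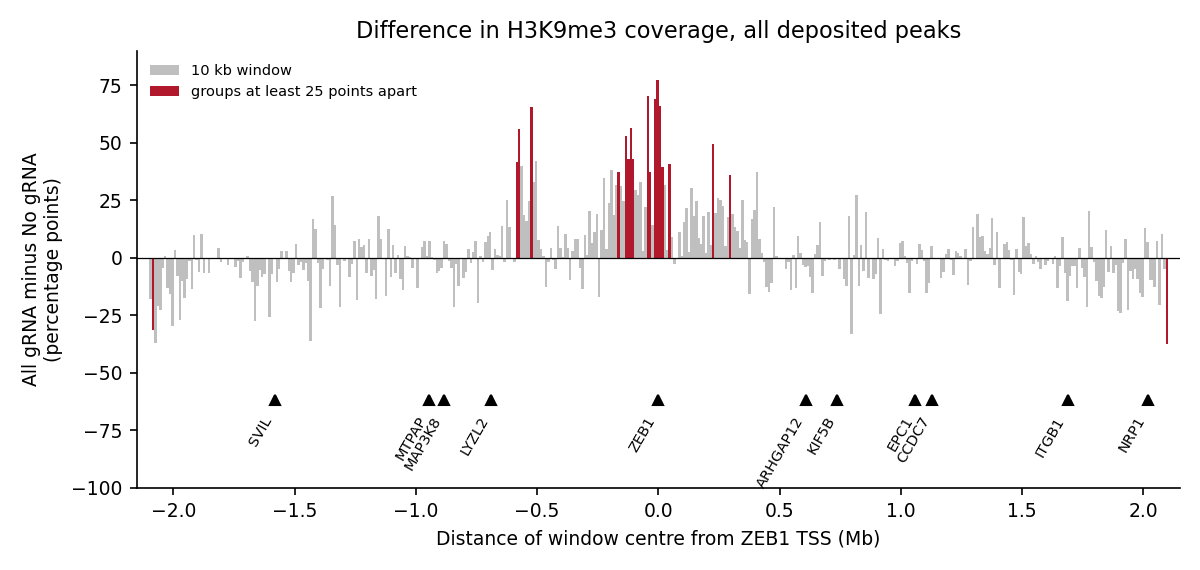
All gRNA minus No gRNA difference of mean H3K9me3 coverage (percentage points, all deposited peaks) in 420 consecutive 10 kb windows by distance (Mb) from the ZEB1 TSS, with triangles at the TSS of ZEB1 and of its neighbours. The 19 windows whose groups are at least 25 points apart are red, and none of them lies at a neighbour.

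H3K4me3 at q ≤ 0.05 marked the canonical start of 9 of the 10 neighbours in at least 1 library, as it did at 56.7% of all promoters, and its calls did not separate the labelled groups at the annotated 5′ ends. At q ≤ 0.05, 0 of 10 were called in the TSS ± 1 kb, against 1.75% of all promoters. The full lists also gave 0 calls (4.00% of all promoters). In those full lists 6 of 10 were covered to 100% in all 4 libraries at the 5′ end (31.4% of all promoters) and 9 of 10 at the canonical TSS (34.5%), LYZL2 being the exception. At q ≤ 0.05 and the canonical TSS, 7 and 4 members were fully covered under the labels All gRNA replicates 1 and 2, against 5 and 9 under No gRNA replicates 1 and 2. Of all promoters, 27.7% and 9.55% were fully covered against 7.92% and 47.1% in the same order. The peak with the lowest q was in the library labelled No gRNA replicate 2 for 10 of 10 members. The part of library yield in these differences was not tested.

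ARHGAP12 and CCDC7 were the 2 members covered to 100% by H3K4me3 at q ≤ 0.05 in every library. The ARHGAP12 peak, over the CpG-rich stretch printed above, had a q of 0.00634, 0.0130, 0.0102 and 7.87e-06 in the libraries labelled All gRNA replicates 1 and 2 and No gRNA replicates 1 and 2. Its fold enrichment in the same order was 3.23, 3.26, 3.05 and 4.71. No more than 0.481% of the peaks of any of the 4 lists had a q as low. CCDC7 had a q of 0.0197, 0.0227, 0.00177 and 9.22e-06 and fold enrichments of 2.96, 3.08, 3.50 and 4.67 in this order. At q ≤ 0.01 CCDC7 was therefore at 0% under the label All gRNA and 100% under No gRNA, and was the one member called at its 5′ end at that threshold. Of all 19962 promoters, 201 were called lower there in the libraries labelled All gRNA and 3 higher. If the 2 libraries whose file names give the other condition exchanged labels, CCDC7 would read 0% and 100% in each group. It would then not be called. Fold enrichment varied across libraries at both genes, so full coverage does not mean an equal level. An unnamed antisense long noncoding RNA starts 64 bases from the CCDC7 TSS, and a peak of this width cannot be assigned to one of them.

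KIF5B and NRP1 shared one pattern: 0% coverage under the label No gRNA replicate 1 and 100% under the other 3 labels. In that one library the KIF5B peak had a q of 0.0938 and the NRP1 peak a q of 0.0664, so both were deposited but fell outside the threshold. MAP3K8 was at 100%, 0%, 0% and 100%, with q of 0.0982 and 0.0896 in the 2 libraries at 0%. These 2 are the libraries whose file names give the other condition. Without them all 3 genes read 100% in the one remaining library of each label.

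EPC1 was the single member called at q ≤ 0.05, at its canonical TSS. There it read 0% under the label All gRNA and 100% under No gRNA, whereas 1.79% of all promoters were called at that start, 338 of these 357 being lower in the libraries labelled All gRNA. The 4 EPC1 peaks had a q of 0.110, 0.0791, 0.0241 and 0.00297 and fold enrichments of 2.58, 2.69, 2.70 and 3.29, so all 4 libraries held an EPC1 peak and the call turned on which of them passed the threshold. In the full lists EPC1 was at 100% in all 4 libraries. At the annotated 5′ end, 31.6 kb away, its values were 100%, 0%, 0% and 100%. EPC1-AS1 starts 239 bases from the canonical EPC1 TSS on the opposite strand, and the mark cannot be assigned to either. The difference remained at 0% against 100% without the 2 libraries whose file names give the other condition, with 1 library per label left. Were the labels of those 2 exchanged, EPC1 would read 0% and 100% in each group and would not be called.

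MTPAP and ITGB1 had H3K4me3 peaks at q ≤ 0.05 at the canonical TSS and not at the annotated 5′ end. At the 5′ end both were at 0% in all 4 libraries at q ≤ 0.05, whereas at the canonical TSS both read 100%, 0%, 100% and 100% in the libraries labelled All gRNA replicates 1 and 2 and No gRNA replicates 1 and 2. Under the label All gRNA replicate 2 the MTPAP peak had a q of 0.132 and the ITGB1 peak a q of 0.0786. At q ≤ 0.01 the canonical TSS of ITGB1 read 0% in both libraries labelled All gRNA and 100% in both labelled No gRNA. Its q was 0.0152, 0.0786, 0.00930 and 0.000300 in the order above. ITGB1 and CCDC7 were the 2 members called at the canonical TSS at that threshold, beside 210 lower and 4 higher of all 19962 promoters. If the 2 libraries whose file names give the other condition exchanged labels, ITGB1 would read 0% and 100% in each group. In the full lists the ITGB1 5′ end was covered to 95.8%, 100%, 100% and 100%, by peaks with a q of 0.381, 0.359, 0.203 and 0.130. A pseudogene, GOLGA2P6, starts 62 bases from the MTPAP 5′ end, and ITGB1-DT starts 207 bases from the canonical ITGB1 TSS. SVIL passed q ≤ 0.05 under the label No gRNA replicate 2 alone, with 95.1% at the 5′ end and 100% at the canonical TSS. Without the 2 libraries whose file names give the other condition, SVIL would be called lower in the library labelled All gRNA, at 0% against 95.1%. This leaves 1 library per label, in which H3K4me3 peaks touched 33.2% (All gRNA) and 52.6% (No gRNA) of all promoters. No share of promoters called is given for that setting, so the call cannot be read as a result about SVIL. LYZL2, with 3 CG in the 250 bases before its start, had no peak at q ≤ 0.05 at either start, and its strongest deposited peak had a q of 0.329.

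**Figure D4:**
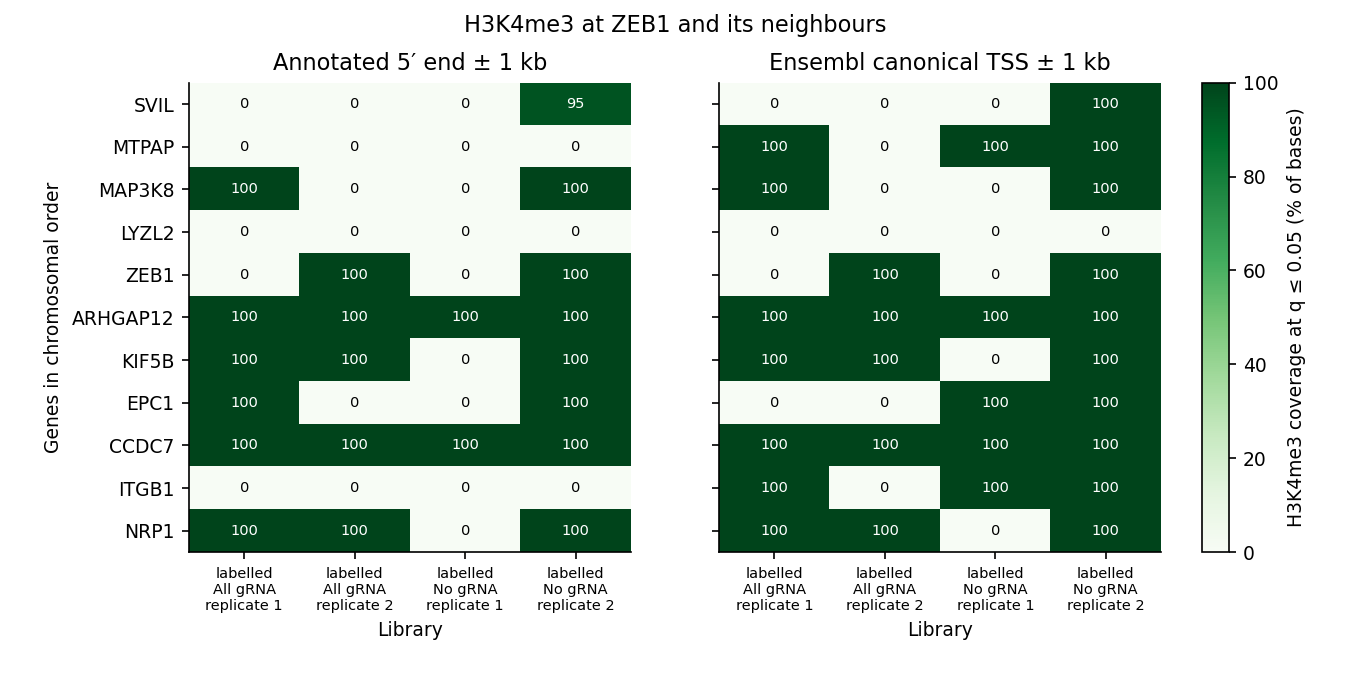
H3K4me3 coverage at q ≤ 0.05 (percent of bases) in the TSS ± 1 kb of ZEB1 and its neighbours at the annotated 5′ end (left) and the Ensembl canonical TSS (right), with 1 column per library under its label. ARHGAP12 and CCDC7 are at 100% in each column, LYZL2 at 0% in each, and EPC1 at the canonical TSS is at 0%, 0%, 100% and 100%.

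ZEB1 itself did not separate by label in H3K4me3, at 0%, 100%, 0% and 100% in the libraries labelled All gRNA replicates 1 and 2 and No gRNA replicates 1 and 2. Without the 2 libraries whose file names give the other condition it was at 0% under the label All gRNA against 100% under No gRNA, and the same would hold for all 4 libraries if the labels of those 2 were exchanged. In the full lists the MTPAP 5′ end was the one member start with the same order of libraries, at 0%, 45.7%, 0% and 57.2%. Both of these MTPAP peaks were weak, with a q of 0.808 and 0.723. At the canonical TSS, MTPAP was at 100% in every full list.

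**Figure D5:**
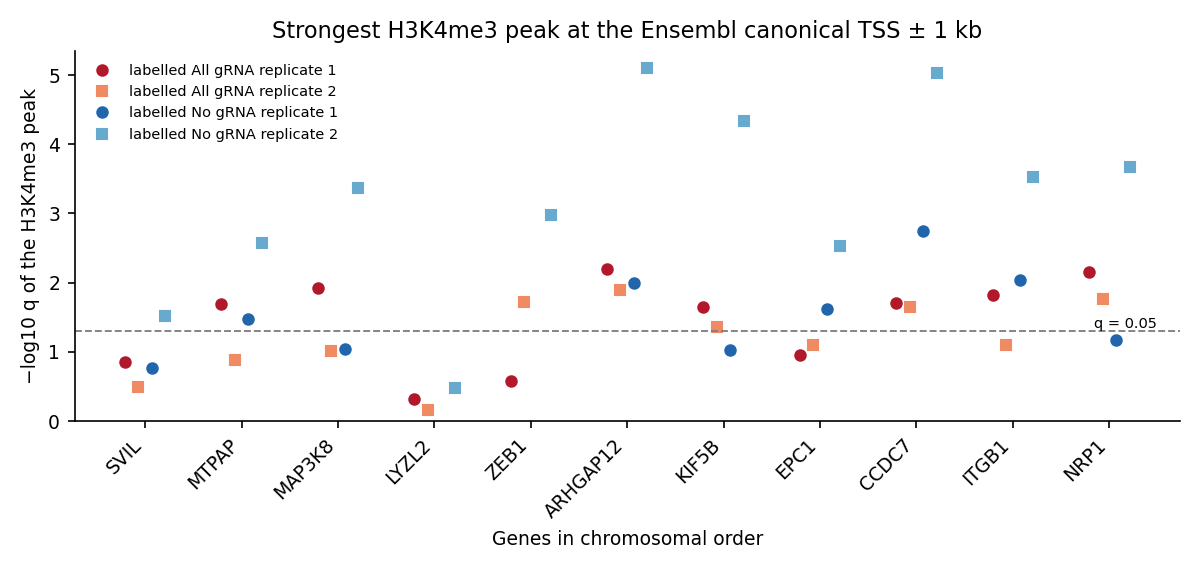
Strength of the H3K4me3 peak (−log10 of the q-value given by the authors' peak caller) within 1 kb of the Ensembl canonical TSS of ZEB1 and its neighbours, with 1 point per library under its label and a dashed line at q = 0.05. The library labelled No gRNA replicate 2 has the strongest peak at 10 of 10 neighbours, and the others lie near the threshold at most genes.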

How the data were processed

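Native ChIP-seq peak lists of 8 SUM159 libraries were used, with groups from the labels. Per the study's methods, the authors trimmed reads with fastp, aligned them to hg38 with bowtie2, removed duplicates and an exclusion list, and called broad peaks with MACS2 in each library. The submitters' processing notes name Trimmomatic 0.33, Bowtie 1.1.2 and MACS2 2.1.0 instead, and which set made the files is not resolved. Each deposited peak carries a score, a fold enrichment ratio, and its p-value and q-value on a −log10 scale, as the authors' caller gave them. The lists used hold no counts, so depth is unknown and no counting interval is given. The lists reach p-values near 0.1, and the call depends on the threshold placed on them.

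Peaks with q ≤ 0.05 were merged per library, and the percent of bases covered was computed (Python 3.11.15, NumPy 2.4.6, pandas 2.3.3) for the TSS ± 10 kb (H3K9me3), the TSS ± 1 kb (H3K4me3), gene bodies and 10 kb windows, with GENCODE release 44 and 1 TSS per gene. Group values were compared by exact two-sided permutation over the 6 labellings. The calling script was tested on simulated data. All 10 members are named. Members and lists were chosen with earlier results of these data known. Promoter sequences are from RefSeq (GRCh38.p14), found for 8 of 10 members, and were checked to equal hg38. Alternatives were other q thresholds, all deposited peaks, an equal covered length, other windows, starts and gaps, each library left out, and a replicate block.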

Additional observations from a re-analysis of the deposited data

How the results depend on the processing

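With 2 libraries per group no test could pass 0.05. Of 108 alternative values of the 9 counts and shares, 91 kept the main value or stayed close to it, 14 moved and 3 reversed. Some could not move, since all 10 neighbours had 0% H3K9me3 at their starts in every library at q ≤ 0.05. A stricter q, a smaller gap or a library left out then had to give 0 calls there. No alternative called a neighbour in H3K9me3, at promoters or in gene bodies, but ZEB1 itself was not called at q ≤ 0.05 and had no peak within 50 kb in any library at q ≤ 0.001, so 0 calls under those settings do not show stability. The H3K9me3 difference over 50 kb to 2.1 Mb (−0.0526 points) became 1.53 points with all deposited peaks and 0 at q ≤ 0.001, and ran from −0.691 to 0.586 with each library left out. It was 0.153 without All gRNA replicate 2 and 0.586 without No gRNA replicate 2. The 2 windows called higher became 17 with the full lists, 0 at q thresholds of 0.01 and 0.001, at an equal covered length and in 20 kb windows, and 2 to 5 with each library left out (5 without All gRNA replicate 1, 3 without All gRNA replicate 2 or No gRNA replicate 2). The 0 called lower became 2 with all deposited peaks and 0 to 3 with each library left out (3 without No gRNA replicate 1). In H3K4me3, the 0 neighbours called higher became 2 (KIF5B, NRP1) without No gRNA replicate 2, a range of 0 to 2. The 0 called lower became 1 at q ≤ 0.01 (CCDC7), 1 at the canonical TSS (EPC1), 1 without the 2 libraries whose file names give the other condition (SVIL) and 0 to 1 with each library left out (SVIL, without No gRNA replicate 1). Of all 19962 promoters, 201 were called lower in H3K4me3 and 3 higher at q ≤ 0.01, and 338 lower and 19 higher at the canonical TSS. Where a single library was left in a group, its spread was not estimated. No share over all promoters is given for those settings, so their counts cannot be read as a result about the neighbours. The cause of the changes across settings was not tested.

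Same-numbered libraries did not deviate together over all promoters (correlation −0.00926 for H3K9me3 and −0.333 for H3K4me3), so the numbers were not taken to pair them. With the replicate block, 0 neighbours were called in either mark or in gene bodies, the flank difference stayed at −0.0526 points (exact paired p = 1, smallest possible 0.5), and 2 windows were higher and 0 lower. The flank difference had to stay, since pairing does not change the difference of group means. A crossed pairing of the H3K4me3 libraries, chosen after seeing the data, called 0 higher and 0 lower.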

Other observations

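The 3 protein-coding genes of the interval that are not among the neighbours described above were also measured. ZNF438, a zinc finger gene and the nearest to ZEB1, had a TSS ± 10 kb covered by H3K9me3 (all deposited peaks) to 32.4% and 49.1% in All gRNA versus 23.3% and 33.4% in No gRNA, with the groups overlapping. JCAD, an endothelial junction gene, read 27.6% and 7.94% against 16.8% and 27.5%, and LYZL1 26.8% and 40.2% against 44.5% and 38.1%. None of the 3 was called in H3K9me3 at any q threshold run. In H3K4me3 with all deposited peaks, the annotated 5′ end of JCAD read 0% and 39.1% under the label All gRNA against 100% and 96.7% under No gRNA, whereas at its canonical TSS, 55.9 kb away, its groups overlapped. JCAD was thus called lower at the 5′ end, where 4.00% of all promoters were called in either direction. With the labels of the 2 libraries with conflicting file names exchanged, it would read 0% and 100% against 39.1% and 96.7%, which overlap. The body of LYZL1 was covered by H3K9me3 to 31.4% and 32.4% in All gRNA versus 58.7% and 51.8% in No gRNA, the one gene body of the interval other than ZEB1 with more than 10 points between the closest libraries of the groups.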
